A study of Mus musculus with 24 samples.

Results

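Solute carriers are the membrane proteins that move sugars, amino acids, metals, ions, vitamins and metabolites across the plasma membrane and the membranes of organelles. The transporters described here are the 152 protein-coding genes whose symbol is Slc, a family number, the letter a and a member number, and whose mean over the 18 neonatal libraries was at least 5 CPM, the count of a gene per 1e+06 counts of its library. They were drawn from 335 genes with such symbols in a table of 55434 genes, so 183 fell short of the minimum and 28 of those had no read in any neonatal or adult library. Members were thus chosen by their measured level in the neonatal libraries, so these levels are a description. Just inside the minimum stood Slc38a3 with 5.29 and Slc25a14 with 5.37 CPM, and just outside it Slc26a11 with 4.97 and Slc25a43 with 4.67 CPM. Solute carriers of the b to f subfamilies and the Slco genes were not taken by the rule.

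Microglia, the resident macrophages of the brain, were taken from mouse brain by enzymatic digestion and magnetic selection for the surface protein CD11b, and their RNA was sequenced. CD11b is shared by other myeloid cells. Microglia of neonatal MRL/lpr mice spent 48 h in culture with 10% serum and were then exposed for 6 h to interferon gamma (IFNg), interleukin 6 (IL-6), interferon alpha (IFNa), tumour necrosis factor alpha (TNFa) or the mixture of these 4 cytokines, and were compared with unstimulated neonatal MRL/lpr cultures. Adult microglia came from untreated 16-week-old MRL/lpr mice and were compared with those of untreated 16-week-old MRL/MpJ mice. Fas, a death receptor gene, is mutated by lpr in the MRL/lpr strain, which develops a lupus-like autoimmune disease, and MRL/MpJ is the parental strain without that mutation. All neonatal groups, unstimulated cells included, therefore carry lpr, and the neonatal data hold no cells without it. Each of the 8 groups had 3 libraries. The labels do not say whether these came from separate mice or cultures, so p-values measure the spread between these samples, which may be technical. The 5 cytokine comparisons share the same 3 unstimulated libraries. Neither the cytokine doses nor the sex of the mice is in the labels.

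Transporters set what a macrophage can take up, retain and release. Interferons and TNF are known to remodel this set: arginine import feeds nitric oxide synthesis, cystine import feeds glutathione, iron and other metals are moved between phagosome, cytosol and exterior as part of nutritional immunity, and lysosomal carriers return the products of digestion to the cytosol. Mitochondrial carriers of family 25 link the cytosol to the citric acid cycle and to haem synthesis.

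Promoter sequence was available for 116 of the 152 transporters, in RefSeq windows of the GRCm38.p6 build. The 250 bases before the annotated start are shown for 4 transporters that rose under a cytokine, 5′ to 3′ on the gene's own strand, with matches to the searched motifs in capitals. Slc2a6 lies at chr2:27027999-27028248 (minus strand), Slc7a11 at chr3:50443614-50443863 (minus strand), Slc31a2 at chr4:62286179-62286428 (plus strand) and Slc25a22 at chr7:141435376-141435625 (minus strand).
Slc2a6: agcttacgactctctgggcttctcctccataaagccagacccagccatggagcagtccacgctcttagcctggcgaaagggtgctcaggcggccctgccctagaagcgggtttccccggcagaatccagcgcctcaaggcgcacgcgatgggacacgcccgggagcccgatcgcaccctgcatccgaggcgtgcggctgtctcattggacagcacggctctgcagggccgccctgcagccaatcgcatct
Slc7a11: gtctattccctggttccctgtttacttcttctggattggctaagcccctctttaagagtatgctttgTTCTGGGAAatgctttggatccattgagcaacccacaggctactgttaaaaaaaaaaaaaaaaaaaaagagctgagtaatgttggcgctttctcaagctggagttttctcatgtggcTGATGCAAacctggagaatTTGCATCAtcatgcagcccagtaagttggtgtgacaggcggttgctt
Slc31a2: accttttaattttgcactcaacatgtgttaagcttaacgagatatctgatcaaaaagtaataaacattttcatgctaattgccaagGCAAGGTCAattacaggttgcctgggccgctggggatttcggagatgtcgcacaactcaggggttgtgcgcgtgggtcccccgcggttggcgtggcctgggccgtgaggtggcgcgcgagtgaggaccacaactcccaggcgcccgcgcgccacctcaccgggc
Slc25a22: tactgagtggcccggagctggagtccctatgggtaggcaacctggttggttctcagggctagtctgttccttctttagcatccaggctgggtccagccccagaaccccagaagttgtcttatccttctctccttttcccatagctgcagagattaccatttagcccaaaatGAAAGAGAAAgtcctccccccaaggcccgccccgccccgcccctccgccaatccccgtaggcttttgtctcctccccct
The capitals in Slc7a11 mark an interferon-gamma activated site (GAS, searched as TTCNNNGAA) whose first base lies 183 bases before the start, and 2 amino acid response elements (AARE, searched as TGATGNAA) at 66 and 47 bases before it. In Slc31a2 they mark the antioxidant response element core (ARE, searched as TGACNNNGC) on the opposite strand, 164 bases before the start. In Slc25a22 they mark an interferon-stimulated response element (ISRE, searched as GAAA, then NN, then GAAA) 79 bases before the start. That window was shown because it held a match, and the Slc25a22 windows at other annotated starts held none. Slc2a6 held none of the 6 motifs searched. Both strands were searched, matches of different motifs could overlap, and a match is a description of letters only. The kappaB motif and the CLEAR element (TCACGTGA) of lysosomal genes were the other motifs. ISRE letters were in 2.978% of all 32841 promoter windows and in 1.911% of the 157 windows of transporters, AARE letters in 3.45% and 3.822%, GAS letters in 7.022% and 4.459%, kappaB letters in 7.253% and 8.28%, CLEAR letters in 0.7856% and 1.911%, and ARE letters in 10.16% and 18.47%.

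Levels are compared between genes per gene length, as counts divided by the deposited length and scaled to the same sum in every library (TPM). In unstimulated cells the highest were the ADP/ATP carrier Slc25a5 at 833 ± 55.6 TPM (SD, n = 3), the heavy chain Slc3a2 of the amino acid exchangers at 581 ± 49.7, and the phagosomal metal pump Slc11a1 (NRAMP1) at 524 ± 68.7. Then came the sugar-phosphate exchanger Slc37a2 at 434 ± 72.1, the neutral amino acid light chain Slc7a8 at 362 ± 62.1 and the lysosomal peptide transporter Slc15a3 at 338 ± 50.3. Neighbours in this order were closer than the sum of their SDs, apart from the step from Slc25a5 to Slc3a2. The next 4 were the haem transporter Slc48a1 at 319 ± 16.2, the ADP/ATP carrier Slc25a4 at 316 ± 55.6, the zinc importer Slc39a1 at 277 ± 8.37 and the phosphate carrier Slc25a3 at 266 ± 10.4. Slc25a4 and Slc25a5 are near-identical, so the split of reads between them is uncertain.

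The order differed in freshly isolated adult cells, which also differ from the cultures in age and handling and were not tested against them. The lysosomal nucleoside transporter Slc29a3 stood at 394 ± 53 TPM in MRL/lpr cells, after Slc25a5, and at 570.4 ± 155 in MRL/MpJ cells, where it had the highest mean but overlapped with Slc25a5 and Slc3a2. In unstimulated neonatal cells it stood at 64.5 ± 18.27. The lysosomal peptide carrier Slc15a3 stood at 243 ± 17 in MRL/lpr and 199 ± 16.9 in MRL/MpJ cells. Slc2a5, the fructose transporter that marks microglia in brain, fell short of the minimum because cultured cells had a mean of 0.681 CPM, while its mean was 1219 CPM in adult MRL/lpr and 2137 CPM in adult MRL/MpJ cells. In all, 16 transporters outside the 152 reached 5 CPM on average in adult MRL/lpr or MRL/MpJ cells, and these are outside the counts below. By substrate, mitochondrial carriers held 2489 ± 87.9 TPM in unstimulated cells over 32 genes, amino acid and peptide transporters 2566 ± 281 over 27 genes and metal transporters 1520.1 ± 105 over 24 genes. Nucleoside, vitamin and haem transporters held 759 ± 60.9 over 13 genes, sugar transporters 739 ± 83.9 over 14 and inorganic ion transporters 480.3 ± 35.2 over 20.

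Library totals ran from 10084927 to 19316994 counts, and the 152 transporters together held 1.22 to 1.60% of them. The neonatal cultures carried few reads of the homeostatic microglia genes Tmem119 (7.39 ± 1.59 CPM in unstimulated cells) and P2ry12 (24.1 ± 4.61 CPM), against 3762 and 5525 CPM in adult MRL/lpr and 6897 and 6948 CPM in adult MRL/MpJ cells, but held Csf1r at 2396 ± 269 CPM. Fas was under 2 CPM in every adult library and did not serve as a check of the strain labels. In bulk samples such as these, fewer cells of a type and less RNA per cell cannot be told apart. Summed over 6 genes, astrocyte markers ran from 28.98 to 275.9 CPM in stimulated and from 33.2 to 298.1 CPM in unstimulated neonatal libraries.

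Called below means an adjusted p under 0.05 in edgeR's quasi-likelihood F test, with Benjamini-Hochberg adjustment over all 14626 genes tested in the 18 neonatal libraries or all 13799 genes tested in the 6 adult libraries. Changes are log2 fold changes ± SE, and CPM values beside them are scaled by TMM factors within each of these sets of libraries. IFNg left 26 transporters higher and 14 lower, 26.3% of the 152, where 12.9% of all genes (8.57% higher, 4.32% lower) and 17.9% of the protein-coding genes that pass the same minimum were called. IL-6 left 2 higher and 2 lower, 2.63% against 0.978% of all genes (0.745% higher, 0.232% lower). IFNa left 17 higher and 18 lower, 23.03% against 14.5% of all genes (9.41% higher, 5.07% lower). For IL-6 and IFNa only the share of all genes is given, which takes in genes under the minimum. TNFa left 21 higher and 11 lower, 21.1% against 8.1% of all genes (4.38% higher, 3.72% lower) and 11.4% of the coding genes with the same minimum. The mixture left 32 higher and 46 lower, 51.3% against 32% of all genes (15.7% higher, 16.4% lower) and 42.99% of the coding genes with the same minimum.

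The median change over the transporters and over all genes was -0.02 and -0.02 with IFNg, 0.02 and 0.00 with IL-6, -0.11 and -0.04 with IFNa, 0.02 and -0.02 with TNFa and -0.18 and -0.05 with the mixture. Replicates with the same number deviated together, which the calls above do not take into account. Blocking the fit on replicate number called 66 transporters with IFNg (23.7% of all genes) and 15 with IL-6 (4.88% of all genes). It called 68 with IFNa (25.4% of all genes) and 56 with TNFa (17.4% of all genes). The balance of directions depended on scaling. With total counts in place of TMM factors, the higher and lower calls were 20 and 28 with IFNg (15.1% of all genes called), 5 and 2 with IL-6 (1.22%), 13 and 42 with IFNa (18.8%) and 21 and 81 with the mixture (44.7%), as the median of all genes moved to -0.21, -0.03, -0.22 and -0.47. DESeq2 gave 7 and 3 with IL-6. Slc2a6, Slc39a2 and 1 other transporter had a mean under 5 CPM in unstimulated cells and entered the 152 through stimulated libraries, so a rise in those 3 is partly set by the rule. With the minimum taken in unstimulated libraries alone, 151 transporters met it, some from outside the 152, and IFNg called 24 higher and 15 lower, IFNa 16 and 19, and the mixture 29 and 47.

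**Figure D1:**
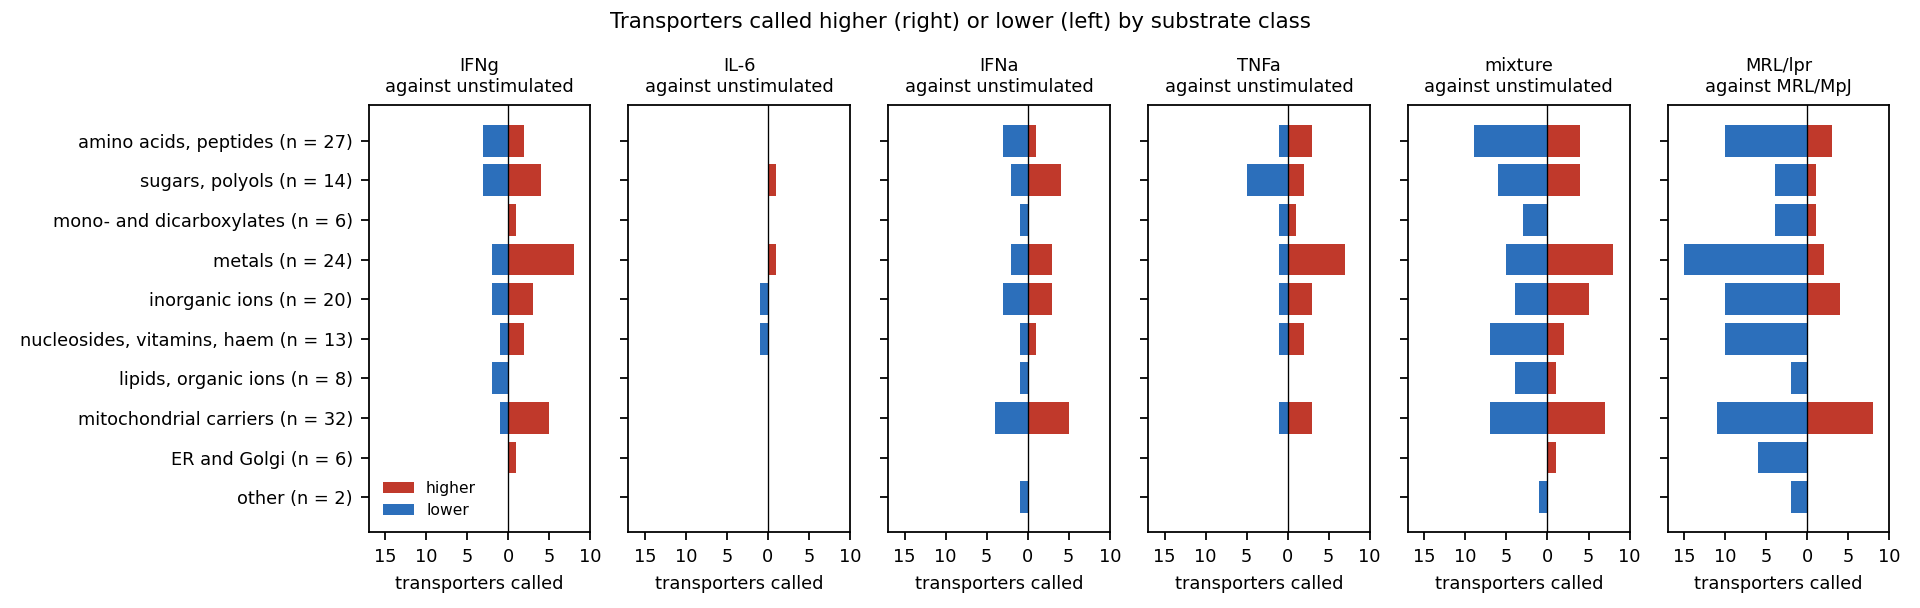
Number of transporters called higher (red, to the right) or lower (blue, to the left) in each substrate class, one panel per comparison, with class sizes beside the names. Metal transporters show 8 higher and 2 lower with IFNg, 7 higher and 1 lower with TNFa, and 2 higher and 15 lower in adult MRL/lpr against MRL/MpJ cells.

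Among the sugar transporters, Slc2a6 (GLUT6), a hexose transporter family member of lysosomal membranes, had the largest rise of all 152 under IFNg, IFNa, TNFa and the mixture. Slc2a6 entered the 152 only through stimulated libraries, so its rise and this rank are partly set by the rule. It stood at 229, 301 and 317 CPM with the mixture, against 3.1, 1.51 and 3.09 CPM in unstimulated cells. TNFa libraries held 68.2, 89.5 and 108 CPM, IFNg libraries 37.5, 47.7 and 44.4 CPM and IFNa libraries 30.1, 42.9 and 32.7 CPM. All of these libraries lay above all 3 unstimulated ones, and the mixture libraries lay above all libraries of the single cytokines. The changes were 6.78 ± 0.34 with the mixture (adjusted p = 3.73e-09), 5.1 ± 0.32 with TNFa (4.07e-08), 4.07 ± 0.31 with IFNg (7.09e-07) and 3.77 ± 0.30 with IFNa (1.66e-06). The mixture exceeded TNFa by 1.67 ± 0.26 (adjusted p = 0.00017), IFNg by 2.71 ± 0.27 (1.54e-05) and IFNa by 3.0 ± 0.28 (5.95e-06). IL-6 libraries held 4.3, 7.43 and 8.75 CPM, with no overlap with unstimulated cells, and a change of 1.4 ± 0.30 (adjusted p = 0.0354). That call ended without IL-6 replicate 2 or 3 or unstimulated replicate 1, 2 or 3, with limma-voom or with the compared groups fitted alone (log2 fold change 1.13 to 1.56, adjusted p 0.0733 to 0.318).

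Slc2a1 (GLUT1), the main glucose importer of most cells, averaged 188 ± 31.9 CPM with the mixture, 170.0 ± 10.8 CPM with TNFa and 125 ± 6.1 CPM with IFNg, against 59.5 ± 4.13 CPM unstimulated (SD, n = 3 each). Its libraries did not overlap with the unstimulated ones in any of these groups. The changes were 1.66 ± 0.15 with the mixture (adjusted p = 6.59e-07), 1.51 ± 0.15 with TNFa (6.95e-06) and 1.08 ± 0.15 with IFNg (0.000149). With IFNa the change of 0.54 ± 0.15 was called (adjusted p = 0.0228), and that call ended without IFNa replicate 1 or 2 or unstimulated replicate 1 or 2, with no filter on low counts, with the compared groups fitted alone or with total counts only (log2 fold change 0.37 to 0.55, adjusted p 0.0516 to 0.153). With IL-6 its change of 0.66 ± 0.15 missed the threshold (adjusted p = 0.0501) and was called with the replicate block (0.00565). Of the 14 sugar transporters, 4 rose and 3 fell with IFNg, 4 rose and 2 fell with IFNa, 2 rose and 5 fell with TNFa, and 4 rose and 6 fell with the mixture. Slc17a5 (sialin), which exports sialic acid from lysosomes, fell with the mixture (-1.48 ± 0.16, adjusted p = 3.72e-06), IFNg (-0.85 ± 0.16, 0.00169) and IFNa (-0.82 ± 0.16, 0.00196). Slc45a4 fell with the mixture (-1.77 ± 0.19, adjusted p = 2.5e-06) and TNFa (-1.28 ± 0.18, 0.000197). The glucose transporter Slc2a3 (GLUT3) fell with the mixture (-1.3 ± 0.18, adjusted p = 3.26e-05), and so did the glucose 6-phosphate carriers Slc37a4 (-1.38 ± 0.25, 0.000435) and Slc37a2 (-1.22 ± 0.25, 0.00125).

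Of the 27 amino acid and peptide transporters, 2 rose and 3 fell with IFNg, 1 rose and 3 fell with IFNa, 3 rose and 1 fell with TNFa, and 4 rose and 9 fell with the mixture. Slc7a11 (xCT), which brings in cystine in exchange for glutamate, stood at 229, 273 and 357 CPM with TNFa, against 29.4, 29.5 and 25.3 CPM in unstimulated cells. The TNFa libraries were all far above the unstimulated ones, with a change of 3.35 ± 0.31 (adjusted p = 3.22e-06). With the mixture, which also contains TNFa, it stood at 63, 56.6 and 52 CPM, a change of 1.03 ± 0.29 (adjusted p = 0.012) whose call ended with total counts only (log2 fold change 0.61, adjusted p 0.104). The mixture lay below TNFa by a log2 difference of -2.32 ± 0.30 (adjusted p = 3.03e-05). With IFNg it held 13.6, 10.9 and 29.1 CPM (-0.65 ± 0.29, adjusted p = 0.188) and with IFNa 20.3, 18.6 and 17.9 CPM (-0.57 ± 0.29, 0.253). Neither interferon passed the test, although all 3 IFNa libraries lay below the unstimulated ones. Its heavy chain Slc3a2 averaged 701 ± 92.2 CPM with TNFa, against 607 ± 95.1 CPM unstimulated (0.21 ± 0.15, adjusted p = 0.574, and 0.0477 with the replicate block).

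Of 10 genes of glutathione synthesis and cystine use, 5 rose with TNFa, 3 fell with IFNg, 3 fell with IFNa, and 1 rose and 2 fell with the mixture. Some of these calls were not stable. Those of Gclm and Gsr with TNFa, and of Gsr and Srxn1 with IFNg, ended when certain single libraries were left out. Txnrd1 (thioredoxin reductase) averaged 857 ± 111 CPM with TNFa, against 308 ± 55.1 CPM unstimulated (1.48 ± 0.17, adjusted p = 3.38e-05). Srxn1 (sulfiredoxin) rose by 1.29 ± 0.19 with TNFa (adjusted p = 0.000216) and changed by -0.97 ± 0.18 with IFNa (0.00166). Gclc, the catalytic subunit for glutathione synthesis, changed by -2.65 ± 0.24 with the mixture (adjusted p = 6.57e-07), -1.76 ± 0.23 with IFNa (8.82e-05) and -1.6 ± 0.23 with IFNg (0.000203).

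Slc7a2 (CAT2), the cationic amino acid transporter that supplies arginine in activated macrophages, stood at 137, 67.9 and 196 CPM with the mixture and 49.5, 65.8 and 78.5 CPM with IFNg, against 15.6, 10.6 and 12.7 CPM unstimulated. Both groups lay above all unstimulated libraries. The changes were 3.37 ± 0.42 (adjusted p = 1.65e-05) and 2.32 ± 0.40 (0.00106). The difference between the mixture and IFNg was 1.05 ± 0.38 and missed the threshold (adjusted p = 0.0843). IFNa gave 1.1 ± 0.39 (adjusted p = 0.0813, and 0.0461 with the replicate block) and TNFa 1.2 ± 0.39 (0.0829). Nos2, the inducible nitric oxide synthase that uses arginine, had no read in the unstimulated libraries and averaged 116 ± 56.2 CPM with the mixture, 2.36 ± 2.12 CPM with IFNg, 2.22 ± 0.662 CPM with IFNa and 1.13 ± 0.861 CPM with TNFa, each scaled by library totals. Gch1, which makes the cofactor of that enzyme, rose by 3.39 ± 0.26 with the mixture (adjusted p = 1.13e-07), 2.76 ± 0.25 with IFNa (3.44e-06), 1.5 ± 0.24 with TNFa (0.000597) and 1.31 ± 0.24 with IFNg (0.00142).

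Slc15a3 (PHT2), which moves histidine and small peptides including bacterial muramyl dipeptide out of lysosomes, stood at 1792, 2272 and 2374 CPM with the mixture, 1295, 1560.5 and 1406 CPM with IFNa and 1139, 1043 and 1391 CPM with IFNg, against 423, 569 and 657 CPM unstimulated. No library of these 3 groups overlapped with the unstimulated ones. The changes were 1.96 ± 0.20 (adjusted p = 1.59e-06), 1.37 ± 0.20 (0.000151) and 1.12 ± 0.19 (0.00092). TNFa gave 0.55 ± 0.19 (adjusted p = 0.106, and 0.00174 with the replicate block). The gene overlaps Tmem132a on the opposite strand, and whether counting used the strand is not stated in the labels. In all, 25 of the 152 transporters overlap a coding gene on the opposite strand, among them Slc7a5, Slc11a2, Slc15a4, Slc19a1, Slc39a11 and Slc39a13, so their reads may be shared if strand was not used. Slc36a4 (PAT4), a proton-coupled amino acid transporter, fell to 14.4, 17.4 and 21.2 CPM with the mixture and 26.9, 33.5 and 33.2 CPM with IFNa, against 58, 73.2 and 71.4 CPM unstimulated. These are changes of -1.93 ± 0.17 (adjusted p = 4.31e-07) and -1.11 ± 0.17 (0.000227). The glutamine transporter Slc38a1 (SNAT1) changed by -1.45 ± 0.20 with the mixture (adjusted p = 3.05e-05) and -1.05 ± 0.20 with IFNa (0.00133), and the exchanger light chain Slc7a6 by -1.29 ± 0.17 (2.59e-05) and -0.92 ± 0.17 (0.00131). Slc36a4, Slc38a1 and Slc7a6 were also called lower with IFNg. Slc36a1 (PAT1), the lysosomal relative of Slc36a4, fell with the mixture (-1.21 ± 0.25, adjusted p = 0.00146) and TNFa (-1.23 ± 0.25, 0.00439).

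**Figure D2:**
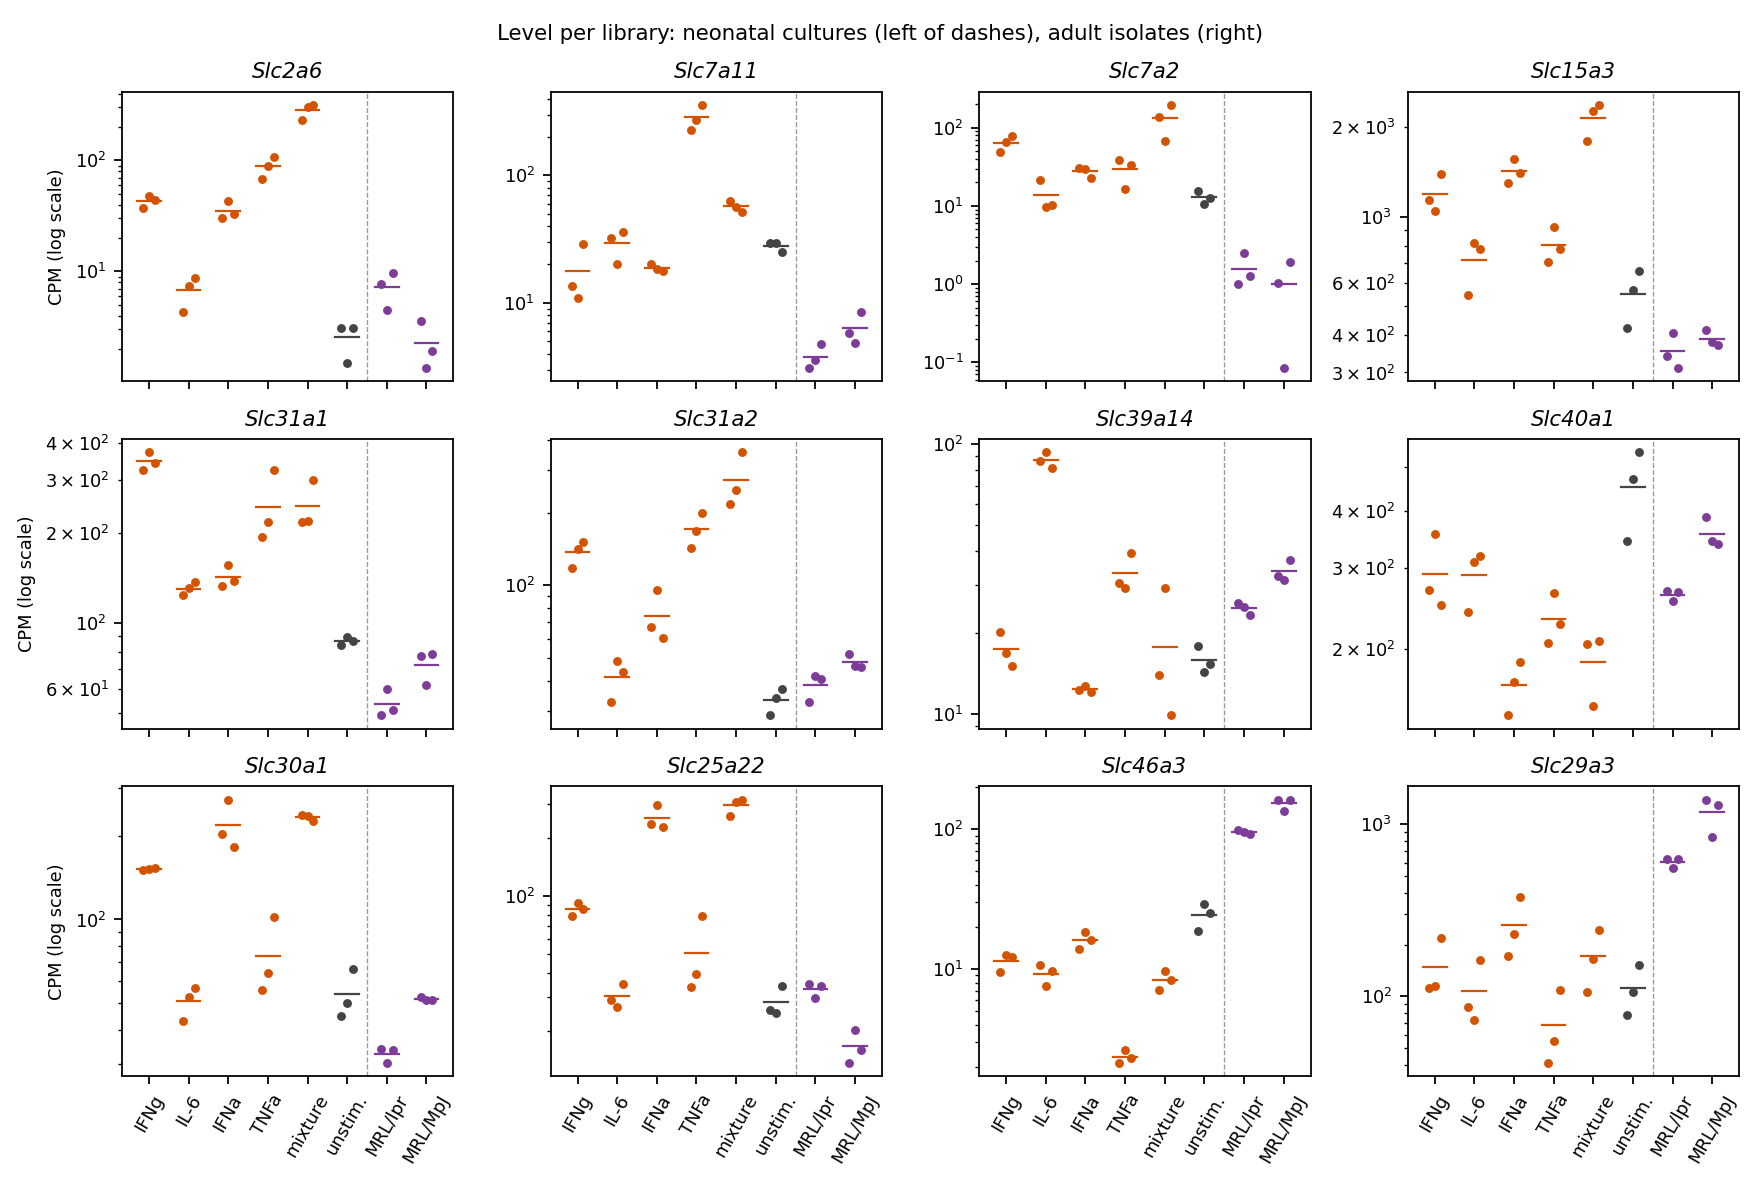
Level of 12 transporters in each of the 24 libraries (points, CPM scaled by TMM factors, log axis) with the group mean (line), cytokine groups in orange left of unstimulated cells in dark grey, and adult MRL/lpr left of adult MRL/MpJ cells in purple. Neonatal and adult libraries were scaled separately, so heights on either side of the dashed line are not compared. Slc2a6 is highest with the mixture, Slc7a11 with TNFa and Slc39a14 with IL-6.

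Of the 24 metal transporters, 8 rose and 2 fell with IFNg, 3 rose and 2 fell with IFNa, 7 rose and 1 fell with TNFa, and 8 rose and 5 fell with the mixture. Both copper transporters were among them. Slc31a1 (CTR1), the high-affinity copper importer, stood at 325, 372 and 342 CPM with IFNg, 193, 217 and 323 CPM with TNFa and 218, 219 and 301 CPM with the mixture, against 84.1, 89.3 and 86.8 CPM unstimulated. All of these libraries lay above the unstimulated ones, and so did those with IL-6 (123, 130.2 and 136 CPM). The changes were 2.0 ± 0.18 with IFNg (adjusted p = 2.14e-06), 1.49 ± 0.17 with TNFa (2.86e-05) and 1.5 ± 0.17 with the mixture (6.34e-06), and the mixture and IFNg differed by -0.49 ± 0.17 (0.0671). Slc31a1 was also called higher with IFNa. The IL-6 change of 0.58 ± 0.17 missed the threshold (adjusted p = 0.171) and was called with the replicate block (0.0128). Slc31a1 overlaps Cdc26 on the opposite strand.

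Slc31a2 (CTR2), which acts on copper in endosomes and lysosomes, stood at 217, 249 and 357 CPM with the mixture, 143, 168 and 200.4 CPM with TNFa, 118, 142 and 152 CPM with IFNg and 66.8, 95.6 and 60.4 CPM with IFNa, against 28.7, 34.1 and 37 CPM unstimulated. None of these groups overlapped with unstimulated cells. The changes were 3.04 ± 0.23 (adjusted p = 1.17e-07), 2.36 ± 0.23 (4.35e-06), 2.04 ± 0.23 (1.69e-05) and 1.16 ± 0.22 (0.00162). The mixture exceeded IFNg by 1.0 ± 0.22 (adjusted p = 0.00528). Its promoter holds the ARE letters shown above, held by 26 of the 116 transporters with a window. These letters were in 8 of the 21 transporters raised and 2 of the 9 lowered by IFNg, and in 6 of the 17 raised and 1 of the 6 lowered by TNFa, counting those with a window.

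Slc39a14 (ZIP14), an importer of zinc and iron known as an IL-6 target in liver, stood at 86.8, 93.2 and 81.5 CPM with IL-6, against 17.9, 14.2 and 15.2 CPM unstimulated. Every IL-6 library was above every other neonatal library for this gene. The change was 2.46 ± 0.28 (adjusted p = 0.000279), the largest rise of any transporter with IL-6. With the mixture, which also contains IL-6, it stood at 13.9, 29.2 and 9.86 CPM, overlapping with unstimulated cells (0.16 ± 0.27, adjusted p = 0.749) and below IL-6 by -2.3 ± 0.28 (1.43e-05). TNFa gave 1.07 ± 0.27 (adjusted p = 0.0212), a call that ended without TNFa replicate 3 or unstimulated replicate 2 or 3 (log2 fold change 0.92 to 1.05, adjusted p 0.0772 to 0.1).

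Slc30a1 (ZnT1), which exports zinc across the plasma membrane, rose with the interferons. It stood at 238, 237 and 227 CPM with the mixture, 204, 271 and 184 CPM with IFNa and 151, 153 and 154 CPM with IFNg, against 44.9, 49.96 and 66.2 CPM unstimulated. The groups did not overlap, and the changes were 2.12 ± 0.22 (adjusted p = 1.7e-06), 2.03 ± 0.22 (1.23e-05) and 1.51 ± 0.21 (0.000149). IFNa exceeded TNFa by 1.57 ± 0.21 (adjusted p = 6.85e-05). Mtf1, the zinc-sensing transcription factor, rose by 0.96 ± 0.21 with IFNg (adjusted p = 0.00562) and 1.0 ± 0.21 with the mixture (0.00149), and it was the only one called of 8 zinc and copper handling genes in those comparisons. Slc39a2 (ZIP2) rose with the mixture (2.82 ± 0.42, adjusted p = 7.99e-05) and IFNg (2.5 ± 0.42, 0.000698), but it overlaps Mettl17 on the same strand, so its reads may be shared. It entered the 152 only through stimulated libraries, so its rise is partly set by the rule. Slc39a13, which overlaps Psmc3 on the opposite strand, rose with TNFa (1.75 ± 0.24, adjusted p = 0.000134) and Slc39a8 (ZIP8) with IFNg (1.12 ± 0.22, 0.00208). Slc30a5, which loads zinc into the secretory pathway, fell with the mixture (-1.23 ± 0.12, 1.45e-06).

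Slc40a1 (ferroportin), the known cellular iron exporter, stood at 143, 169 and 187 CPM with IFNa, 204, 149.5 and 208 CPM with the mixture and 206, 265 and 226 CPM with TNFa, against 345, 471 and 539 CPM unstimulated. All libraries of these 3 groups lay below the unstimulated ones. The changes were -1.44 ± 0.20 (adjusted p = 0.000119), -1.27 ± 0.20 (0.00011) and -0.96 ± 0.20 (0.0045). With IFNg the groups overlapped, and the change of -0.63 ± 0.20 (adjusted p = 0.0437) lost its call without IFNg replicate 1 or 3 or unstimulated replicate 2 or 3 or with the compared groups fitted alone (log2 fold change -0.66 to -0.48, adjusted p 0.0505 to 0.192). With IL-6 the change of -0.64 ± 0.20 missed the threshold (adjusted p = 0.196) and was called with the replicate block (0.031). Slc11a2 (DMT1), which brings ferrous iron out of endosomes, rose with the mixture (1.38 ± 0.23, adjusted p = 0.0002), TNFa (1.27 ± 0.23, 0.00166) and IFNg (1.05 ± 0.23, 0.00524). Slc11a1 (NRAMP1), its phagosomal relative, averaged 869.7 ± 152 CPM with TNFa, against 576 ± 114 CPM unstimulated (0.59 ± 0.19, adjusted p = 0.071, and 1.8e-05 with the replicate block).

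Among 11 tested iron handling genes, 1 rose and 3 fell with IFNg, 3 fell with IFNa, 1 fell with TNFa, and 2 rose and 4 fell with the mixture. Ncoa4, the receptor that takes ferritin to the lysosome, changed by -1.82 ± 0.17 with the mixture (adjusted p = 9.48e-07), -1.41 ± 0.17 with IFNa (4.07e-05) and -1.24 ± 0.17 with IFNg (0.00013). Hmox1, which frees iron from haem, averaged 201 ± 16.6 CPM with IFNg and 242 ± 76.4 CPM with the mixture, against 504 ± 67.9 CPM unstimulated (-1.33 ± 0.20, adjusted p = 0.000306, and -1.06 ± 0.20, 0.000652). Slc48a1 (HRG1), which returns haem from phagolysosomes to the cytosol, rose with TNFa (0.65 ± 0.14, adjusted p = 0.00655) and fell with the mixture (-0.62 ± 0.14, 0.00269). It was also called lower with IFNa. Its libraries held 355, 461 and 402 CPM with TNFa and 146, 178 and 184 CPM with the mixture, against 224, 282 and 272 CPM unstimulated, with no overlap in either direction. The mixture and TNFa differed by -1.26 ± 0.14 (adjusted p = 8.08e-06). Slc48a1 overlaps Hdac7 on the opposite strand.

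Of the 32 mitochondrial carriers, 5 rose and 1 fell with IFNg, 5 rose and 4 fell with IFNa, 3 rose and 1 fell with TNFa, and 7 rose and 7 fell with the mixture. Slc25a22, which takes glutamate into mitochondria with a proton, stood at 259, 308 and 316 CPM with the mixture, 237, 294 and 228 CPM with IFNa and 78.9, 91.8 and 86.2 CPM with IFNg, against 25.6, 24.9 and 34.1 CPM unstimulated. None of the 3 groups overlapped with unstimulated cells. The changes were 3.38 ± 0.27 (adjusted p = 1.42e-07), 3.17 ± 0.26 (1.75e-06) and 1.6 ± 0.25 (0.000372). The IFNg minus IFNa difference was -1.56 ± 0.25 (adjusted p = 0.00164). The mixture and IFNa differed by 0.22 ± 0.24 (adjusted p = 0.739). The Slc25a22 promoter window shown above holds ISRE letters, and its windows at other annotated starts hold none. Slc25a22 is 1 of 3 transporters with an ISRE match in any window. TNFa libraries held 33.6, 39.4 and 78.6 CPM and overlapped with unstimulated cells (0.84 ± 0.25, adjusted p = 0.046). That call ended without TNFa replicate 3 or unstimulated replicate 1 or 2, with limma-voom or with the compared groups fitted alone (log2 fold change 0.37 to 0.83, adjusted p 0.0736 to 0.342).

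The aspartate-glutamate carrier Slc25a12 (aralar) rose with the mixture (2.25 ± 0.24, adjusted p = 3.18e-06), IFNa (1.83 ± 0.24, 7.58e-05) and IFNg (1.18 ± 0.24, 0.00294), while its relative Slc25a13 (citrin) fell with the mixture (-1.46 ± 0.19, 1.93e-05), IFNa (-0.88 ± 0.19, 0.0035) and IFNg (-0.95 ± 0.19, 0.00245). The mitochondrial iron importer Slc25a37 (mitoferrin 1) stood at 33.1, 33.6 and 33.4 CPM with the mixture and 33.1, 33.5 and 27.7 CPM with TNFa, against 12.3, 10.3 and 5.46 CPM unstimulated (1.83 ± 0.28, adjusted p = 8.37e-05, and 1.75 ± 0.28, 0.000511). Its partner Slc25a28 (mitoferrin 2) rose with the mixture (1.4 ± 0.25, adjusted p = 0.000355) and IFNa (1.06 ± 0.25, 0.00702). The branched-chain amino acid carrier Slc25a44 rose with the mixture (1.26 ± 0.15, adjusted p = 6.56e-06) and IFNa (0.89 ± 0.15, 0.000528). The dicarboxylate carrier Slc25a10 rose with TNFa (1.34 ± 0.17, 7.45e-05). The folate and FAD carrier Slc25a32 fell with the mixture (-1.42 ± 0.16, 4.34e-06), as did the NAD carrier Slc25a51 (-0.79 ± 0.15, 0.000813). Slc25a1, the citrate exporter, was not called with any cytokine, at 0.17 ± 0.12 with IFNg (adjusted p = 0.476) and 0.30 ± 0.12 with the mixture (0.0632), though the mixture change was called with the replicate block (0.019).

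Among 13 nucleoside, vitamin and haem transporters, 2 rose and 1 fell with IFNg, 1 rose and 1 fell with IFNa, 2 rose and 1 fell with TNFa, and 2 rose and 7 fell with the mixture. The lysosomal carrier Slc46a3 fell most of all 152 with TNFa. It stood at 2.14, 2.64 and 2.3 CPM with TNFa, 7.13, 9.62 and 8.34 CPM with the mixture, 10.6, 7.52 and 9.72 CPM with IL-6 and 9.46, 12.6 and 12.3 CPM with IFNg, against 18.8, 29.3 and 25.2 CPM unstimulated. All of these libraries lay below the unstimulated ones, those with TNFa far below. The changes were -3.37 ± 0.22 (adjusted p = 8.05e-08), -1.55 ± 0.21 (2.43e-05), -1.39 ± 0.20 (0.00204) and -1.1 ± 0.20 (0.00149). The mixture lay above TNFa by 1.82 ± 0.21 (adjusted p = 1.33e-05).

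Slc44a1, the choline transporter, rose to 261, 309.7 and 414 CPM with TNFa, against 104, 121 and 150.01 CPM unstimulated (1.4 ± 0.18, adjusted p = 8.99e-05). The groups did not overlap. Slc43a3, a purine nucleobase transporter, rose with IFNg (1.96 ± 0.33, adjusted p = 0.000796) and the mixture (1.52 ± 0.33, 0.00204), and the ascorbate importer Slc23a2 rose with IFNg (1.22 ± 0.24, 0.00278). The folate transporter Slc46a1 fell with the mixture (-1.2 ± 0.24, adjusted p = 0.00123). Slc29a3 (ENT3), a lysosomal nucleoside transporter, was highest in replicate 3 of every neonatal group. It stood at 173, 232 and 379 CPM with IFNa, against 77.7, 106 and 153 CPM unstimulated, which is above in all 3 libraries (1.22 ± 0.45, adjusted p = 0.0928). With the replicate block the change of 1.2 was called (adjusted p = 1.93e-06), as was that of -0.78 with TNFa (0.000308). Among 11 lysosomal and endosomal transporters in all, 2 rose and 2 fell with IFNg, 1 rose and 2 fell with IFNa, 2 rose and 3 fell with TNFa, and 2 rose and 4 fell with the mixture.

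The 20 inorganic ion transporters gave 3 higher and 2 lower with IFNg, 3 and 3 with IFNa, 3 and 1 with TNFa and 5 and 4 with the mixture. Slc12a2 (NKCC1), which takes up sodium, potassium and chloride, stood at 49, 31.5 and 34.1 CPM with IL-6 and 43.4, 41.1 and 37.6 CPM with IFNg, against 85.1, 104 and 75.7 CPM unstimulated. It fell with IL-6 (-1.2 ± 0.19, adjusted p = 0.00359), IFNg (-1.12 ± 0.19, 0.00077), TNFa (-0.89 ± 0.19, 0.00595) and IFNa (-0.82 ± 0.19, 0.00643), without overlap in any of them. The IL-6 call ended with the compared groups fitted alone (log2 fold change -1.22, adjusted p 0.052). Slc4a7 (NBCn1), a sodium bicarbonate cotransporter, rose to 152, 181 and 273 CPM with TNFa, against 38.9, 39.5 and 45.1 CPM unstimulated (2.29 ± 0.18, adjusted p = 3.75e-07), and the mixture lay below TNFa by -1.56 ± 0.17 (7.37e-06). Slc12a9 stood at 342, 338 and 384 CPM with the mixture and 237, 301 and 315 CPM with IFNa, against 54.4, 70.5 and 110.0 CPM unstimulated (2.18 ± 0.34, adjusted p = 0.000107, and 1.86 ± 0.33, 0.00106).

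Of 6 transporters of organic acids, 1 rose with IFNg, 1 fell with IFNa, 1 rose and 1 fell with TNFa, and 3 fell with the mixture. Slc16a6 (MCT7) fell with the mixture (-1.82 ± 0.23, adjusted p = 1.84e-05), TNFa (-1.53 ± 0.23, 0.00034) and IFNa (-1.17 ± 0.23, 0.00204), and it overlaps Amz2 and Arsg on the opposite strand. The lactate exporter Slc16a3 (MCT4) was called with no cytokine (0.60 ± 0.39 with TNFa, adjusted p = 0.491). Slc13a3 (NaDC3), a sodium-coupled dicarboxylate importer, stood at 144, 143 and 209 CPM with TNFa and 41.4, 18.7 and 216 CPM with IFNg, against 27, 10.9 and 16.8 CPM unstimulated. With IFNg a single library stood apart, and without IFNg replicate 3 the change was 0.72 (adjusted p = 0.546), against 2.34 ± 0.73 with it (0.05). The IFNg call ended without IFNg replicate 3 or unstimulated replicate 1, 2 or 3, with RLE size factors, with limma-voom, with no filter on low counts, with the compared groups fitted alone, with the replicate block or with total counts only (log2 fold change 0.72 to 2.74, adjusted p 0.0501 to 0.546). The TNFa change of 3.19 ± 0.76 (adjusted p = 0.0152) lost its call without TNFa replicate 3 or unstimulated replicate 2 or 3 or with no filter on low counts (log2 fold change 2.92 to 3.16, adjusted p 0.0539 to 0.0868). Among 14 genes of glucose and lactate use, 5 rose with IFNg, 5 with the mixture, 3 with IFNa and 1 with TNFa. Pfkfb3, a driver of glycolysis, rose by 1.69 ± 0.17 with the mixture (adjusted p = 1.83e-06), and Hif1a by 1.49 ± 0.22 with IFNg (0.000231) and 1.04 ± 0.22 with TNFa (0.00536).

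The 8 transporters of lipids and organic ions gave 2 lower with IFNg, 1 lower with IFNa and 1 higher and 4 lower with the mixture. The fatty acid transporters Slc27a1 (-0.97 ± 0.17, adjusted p = 0.000371) and Slc27a4 (-0.66 ± 0.14, 0.00205) and the organic cation transporter Slc22a4 (-1.02 ± 0.27, 0.00751) fell with the mixture. Of the 6 carriers of the endoplasmic reticulum and Golgi, which supply nucleotide sugars and acetyl groups, 1, Slc33a1, rose with IFNg (0.70 ± 0.16, adjusted p = 0.00808) and with the mixture (0.56 ± 0.16, 0.013). The IFNg call ended with total counts only (log2 fold change 0.51, adjusted p 0.0648), and the mixture call without unstimulated replicate 1 or with total counts only (log2 fold change 0.15 to 0.51, adjusted p 0.0554 to 0.53). Of 3 members from a list typical of other brain cells, Slc45a3 rose with IFNa (1.29 ± 0.28, adjusted p = 0.00456). That IFNa call ended with all 24 libraries in 1 fit (log2 fold change 1.31, adjusted p 0.0645). Markers of other cells also moved with treatment. The sum of 8 border macrophage markers was 764.0 to 795.3 CPM with IL-6 and 611.9 to 683.7 CPM with TNFa. It was 404.4 to 430.1 CPM with IFNa, against 498.9 to 525.0 CPM unstimulated, and overlapped with unstimulated cells with IFNg and the mixture. Of 7 tested markers, 1 rose with IL-6, 1 with TNFa, 1 with IFNg and 1 with the mixture, and 1 fell with IFNa. The sum of 7 endothelial markers was 180.2 to 202.3 CPM with IFNa and 129.8 to 162.8 CPM with the mixture, against 25.9 to 54.6 CPM unstimulated, and 2 of 5 tested markers rose in each. The sum of 5 monocyte markers was 152.7 to 176.0 CPM with IFNg, 123.8 to 138.9 CPM with IFNa, 155.4 to 248.7 CPM with TNFa and 127.9 to 219.3 CPM with the mixture, against 38.9 to 68.4 CPM unstimulated, and 1, 2, 1 and 3 of its 5 genes rose. No endothelial or monocyte marker was without reads in these groups. The sum of 9 genes induced by tissue dissociation was 1041 to 1223 CPM with IFNg, 1193 to 1390 CPM with IFNa, 1154 to 1453 CPM with TNFa and 1355 to 1736 CPM with the mixture, against 781.6 to 907.0 CPM unstimulated. Of these 9 genes, 2 rose and 1 fell with IFNg, 4 rose with IFNa, 3 rose and 2 fell with TNFa, and 5 rose with the mixture. The sum of 12 microglia markers was 8262 to 9757 CPM with IFNg, 7572 to 7934 CPM with IFNa and 6748 to 7961 CPM with the mixture, against 10213 to 11189 CPM unstimulated. Of these 12 genes, 3 rose and 3 fell with IFNg, 2 rose and 3 fell with IFNa, and 4 rose and 3 fell with the mixture. All these marker sums are scaled by library totals, without the TMM factors used for the calls. The part of any of these in the transporter changes was not tested.

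**Figure D3:**
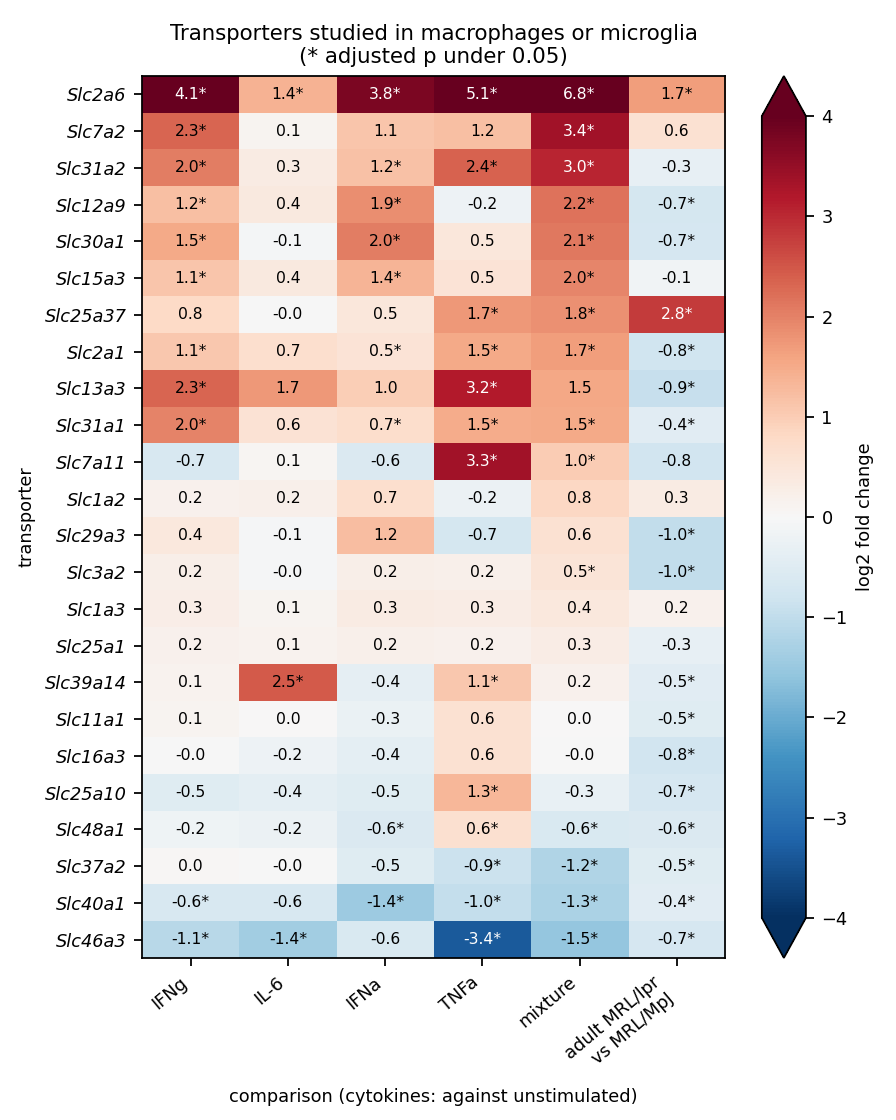
Log2 fold changes of 24 transporters studied in macrophages or microglia (rows) in the 6 comparisons (columns), with a star at an adjusted p under 0.05. Of these 24, 9 rose and 2 fell with IFNg, 2 and 1 with IL-6, 7 and 2 with IFNa, 10 and 3 with TNFa and 11 and 4 with the mixture, while 2 rose and 15 fell in adult MRL/lpr against MRL/MpJ cells.

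In adult microglia, which took no part in choosing the 152, transporters were lower in MRL/lpr than in MRL/MpJ cells far more often than higher. Of 149 tested, 19 were higher and 74 lower, 62.4% in all, against 45.7% of all genes and 51.3% of coding genes with the same minimum. The lower calls took in 49.7% of the transporters, against 21.6% of all genes, and the higher calls 12.8%, against 24.1%. All genes here include those under the transporters' minimum, and the split by direction is not given for coding genes with that minimum. The median change over the transporters was -0.45, against 0.01 over all genes. With total counts in place of TMM factors the calls were 27 higher and 45 lower (45.1% of all genes called), as the median of all genes moved to 0.27 and that of the transporters to -0.19, and lower calls were again more numerous than higher ones. Of the 93 called transporters, 16 differed by at least 1 on the log2 scale.

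The strongest difference was higher in MRL/lpr cells. Slc25a37 (mitoferrin 1), which brings iron into mitochondria, stood at 258, 179 and 244 CPM in MRL/lpr cells, against 33.8, 28.7 and 35 CPM in MRL/MpJ cells (2.8 ± 0.15, adjusted p = 1.36e-07). The lowest MRL/lpr library was several times the highest MRL/MpJ one. Slc25a28 (mitoferrin 2) stood at 72.1, 62.3 and 73.1 CPM in MRL/lpr cells, against 23.8, 34.9 and 23 CPM in MRL/MpJ cells (1.35 ± 0.16, adjusted p = 5.23e-05). Both mitochondrial iron importers were thus higher in every MRL/lpr library. The glutamate carrier Slc25a22 averaged 33 ± 2.79 CPM in MRL/lpr cells, against 16.6 ± 3.37 CPM in MRL/MpJ cells (0.99 ± 0.16, adjusted p = 0.000465). Mitochondrial carriers gave 8 of the 19 higher calls in MRL/lpr cells and 11 lower ones among 32, the ADP/ATP carrier Slc25a5 among them (-0.64 ± 0.12, adjusted p = 0.000772).

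Slc38a6, an orphan member of the glutamine transporter family, stood at 27.2, 21.8 and 32 CPM in MRL/lpr cells, against 5.25, 4.8 and 3.69 CPM in MRL/MpJ cells (2.56 ± 0.21, adjusted p = 3.24e-06). The anion exchanger Slc26a6 stood at 10.8, 12 and 13.9 CPM in MRL/lpr cells, against 2.74, 2.36 and 1.78 CPM in MRL/MpJ cells (2.42 ± 0.27, 2.82e-05). The phosphate importer Slc20a1 (PiT1) stood at 37.5, 30.5 and 40.6 CPM in MRL/lpr cells, against 12, 9.1 and 11.3 CPM in MRL/MpJ cells (1.74 ± 0.17, 1.04e-05). None of these 3 overlapped between the strains. Slc2a6, the transporter with the largest cytokine response, was low in both strains, at 7.68, 4.49 and 9.74 CPM in MRL/lpr and 3.55, 1.35 and 1.91 CPM in MRL/MpJ cells (1.68 ± 0.42, adjusted p = 0.00603), again without overlap. Slc30a9 averaged 93.7 ± 0.686 CPM in MRL/lpr and 43.4 ± 3.04 CPM in MRL/MpJ cells (1.11 ± 0.10, 9.31e-06).

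**Figure D4:**
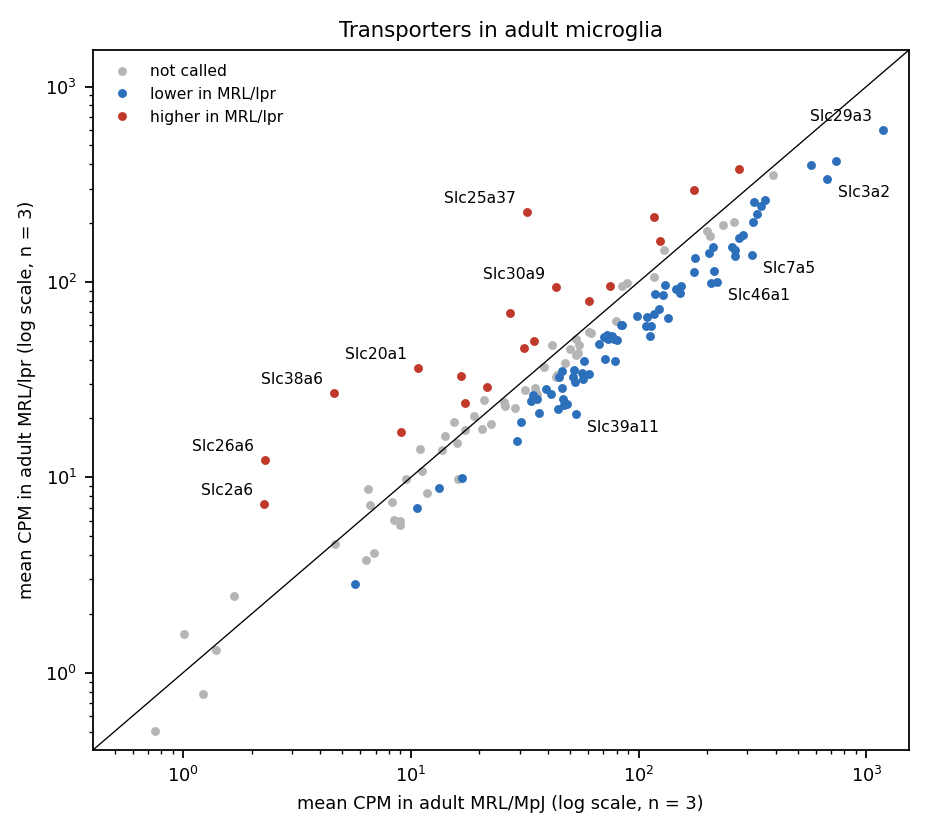
Mean level of 149 transporters in adult MRL/lpr cells (vertical) against adult MRL/MpJ cells (horizontal), in CPM scaled by TMM factors on log axes, n = 3 libraries each, with calls coloured and the line of equality in black. The 74 transporters lower in MRL/lpr cells lie below the line over a wide range of levels, and Slc25a37 lies farthest above it.

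The lower transporters covered most classes. Of 23 tested metal transporters, 2 were higher and 15 lower in MRL/lpr cells. Slc39a11 (ZIP11), which overlaps Sstr2 and Cog1 on the opposite strand, had the largest fall, at 19.6, 23.1 and 20.4 CPM in MRL/lpr cells, against 67.1, 45.1 and 46.6 CPM in MRL/MpJ cells (-1.33 ± 0.17, adjusted p = 6.46e-05). The zinc importer Slc39a1 (ZIP1) changed by -1.07 ± 0.10 (adjusted p = 7.66e-06) and the zinc exporter Slc30a1 by -0.66 ± 0.11 (0.000589). Slc40a1 stood at 268, 254 and 266 CPM in MRL/lpr cells, against 389, 345 and 339 CPM in MRL/MpJ cells (-0.44 ± 0.10, adjusted p = 0.00281), a call that ended with total counts only (log2 fold change -0.18, adjusted p 0.128). That of Slc11a1 (-0.48 ± 0.11, adjusted p = 0.00452) ended with total counts only (log2 fold change -0.22, adjusted p 0.113). Of 10 tested iron handling genes, 1 was higher and 5 lower in MRL/lpr cells, among them the ferritin chain Fth1 (-0.82 ± 0.14, adjusted p = 0.000524), while the iron sensor Ireb2 was higher (0.72 ± 0.10, 0.000137).

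Nucleoside, vitamin and haem transporters were lower in 10 of 13 cases. Slc29a3 (ENT3) stood at 625, 554 and 627 CPM in MRL/lpr cells, against 1392, 847 and 1304 CPM in MRL/MpJ cells (-0.97 ± 0.16, adjusted p = 0.000447). The groups did not overlap, and the call ended with all 24 libraries in 1 fit (log2 fold change -1.04, adjusted p 0.0579). The proton-coupled folate transporter Slc46a1 stood at 97.6, 107 and 95.4 CPM in MRL/lpr cells, against 253, 198 and 211 CPM in MRL/MpJ cells (-1.14 ± 0.11, adjusted p = 1.55e-05). The folate carrier Slc19a1 changed by -0.98 ± 0.12 (adjusted p = 6.2e-05) and the nucleoside transporter Slc29a1 by -0.87 ± 0.10 (2.76e-05). All 6 carriers of the endoplasmic reticulum and Golgi were lower in MRL/lpr cells, with changes from -0.77 for the UDP-galactose carrier Slc35a2 (adjusted p = 0.000353) to -0.40 for the CMP-sialic acid carrier Slc35a1 (0.0205). The call of Slc35a1 ended without adult MRL/MpJ replicate 1 or adult MRL/lpr replicate 1 or 3, with all 24 libraries in 1 fit, with no filter on low counts or with total counts only (log2 fold change -0.46 to -0.14, adjusted p 0.0538 to 0.381).

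The amino acid exchanger light chain Slc7a5 (LAT1) stood at 134, 147 and 129 CPM in MRL/lpr cells, against 346, 268 and 329 CPM in MRL/MpJ cells (-1.2 ± 0.12, adjusted p = 1.15e-05). Its heavy chain Slc3a2 stood at 325, 374 and 312 CPM in MRL/lpr cells, against 697, 664 and 649 CPM in MRL/MpJ cells (-0.99 ± 0.10, adjusted p = 1.8e-05). Every MRL/lpr library was far below every MRL/MpJ one for both chains. The light chain Slc7a8 changed by -0.54 ± 0.11 (adjusted p = 0.00226), a call that ended with total counts only (log2 fold change -0.27, adjusted p 0.0563), and the lysosomal carrier Slc15a4 was also lower (-0.92 ± 0.10, 3.55e-05). Of the 27 amino acid and peptide transporters, 3 were higher and 10 lower in MRL/lpr cells. Slc15a3 averaged 353 ± 49.4 CPM in MRL/lpr and 389.6 ± 24.9 CPM in MRL/MpJ cells, with overlap (-0.14 ± 0.12, adjusted p = 0.338). Slc7a2, raised by IFNg in culture, averaged 1.72 CPM in MRL/lpr and 0.917 CPM in MRL/MpJ cells before TMM scaling.

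Sugar transporters gave 1 higher and 4 lower of 13 tested, with Slc2a1 at 76.7, 105 and 80.8 CPM in MRL/lpr cells, against 139, 135 and 182 CPM in MRL/MpJ cells (-0.80 ± 0.15, adjusted p = 0.001). The fructose transporter Slc2a5, outside the 152, stood at 1113, 1167 and 1068 CPM in MRL/lpr cells, against 2477, 2090 and 2463 CPM in MRL/MpJ cells (-1.07 ± 0.10, adjusted p = 1.04e-05). Of the 6 transporters of organic acids, 1 was higher and 4 lower in MRL/lpr cells. The lactate and monocarboxylate transporter transcripts Slc16a1 (MCT1; -1.0 ± 0.21, adjusted p = 0.00211) and Slc16a3 (MCT4; -0.77 ± 0.10, 0.000119) were lower, the second of which lost its call with all 24 libraries in 1 fit (log2 fold change -0.84, adjusted p 0.062). Slc16a6 was higher, at 401, 362 and 375 CPM in MRL/lpr cells, against 318, 254 and 253 CPM in MRL/MpJ cells (0.46 ± 0.11, adjusted p = 0.00527), a call that ended with all 24 libraries in 1 fit (log2 fold change 0.40, adjusted p 0.132). Summed per length, the 6 genes held 457 ± 28.1 TPM in MRL/lpr and 364 ± 32.7 TPM in MRL/MpJ cells. Of 14 genes of glucose and lactate use, 2 were higher and 11 lower in MRL/lpr cells, such as Eno1 (-0.60 ± 0.10, adjusted p = 0.000671) and Bsg (-0.79 ± 0.14, 0.000789), the protein that carries these lactate transporters to the membrane. Of 19 tested inorganic ion transporters, 4 were higher and 10 lower, including Slc12a2 (-0.72 ± 0.10, 0.000169) and the endosomal proton exchanger Slc9a9 (-0.95 ± 0.12, 9.34e-05).

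Cell markers and handling genes also differed between the adult strains. The sum of 12 microglia markers was 47262 to 52706 CPM in MRL/lpr cells, against 72839 to 74745 CPM in MRL/MpJ cells, with 10 markers lower. The sum of 8 border macrophage markers was 97.6 to 186.9 CPM, against 270.7 to 327.0 CPM, with 6 lower. A set of 9 genes induced by tissue dissociation summed to 2767 to 3039 CPM in MRL/lpr cells, against 846.7 to 939.7 CPM in MRL/MpJ cells, and all 9 were higher. NK cell markers summed to 46.7 to 59.97 CPM, against 5.41 to 17.4 CPM, with 4 of 5 higher and none without reads in MRL/lpr cells. T cell markers summed to 10.3 to 14.5 CPM in MRL/lpr cells, against 4.93 to 9.19 CPM in MRL/MpJ cells, with 3 of 7 higher. Monocyte markers summed to 57.5 to 194.6 CPM, against 48.3 to 67.3 CPM, with 2 of 5 higher, and the sums overlapped. Choroid plexus markers ranged widely within both strains, at 288.8 to 953.9 CPM in MRL/lpr cells, against 94.7 to 1378 CPM in MRL/MpJ cells, with 1 of 3 lower. Of the other lists, 3 of 6 oligodendrocyte, 2 of 6 tested mural or fibroblast and 1 of 2 tested B cell markers were lower and 1 of 4 tested neuron markers was higher. The part of these differences in the transporter results was not tested.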

How the data were processed

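RNA-seq count tables of 24 mouse microglia libraries (18 neonatal, 6 adult, 3 per group) were used. The deposited values are raw counts per gene with a gene length, per the file headers; the authors' reads were trimmed with cutadapt 2.1 and aligned with STAR 2.7.1a to mm10, per the submitters' processing notes. No source used here names the counting program or its strand setting. Per the labels' protocols, libraries were made with a directional kit.

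Counts were tested with edgeR 4.0.16 in R 4.3.3 (filterByExpr, TMM factors, robust quasi-likelihood F test), with the 18 neonatal libraries in 1 fit and the 6 adult ones in another, and Benjamini-Hochberg adjustment over all genes tested in a fit. Each SE was taken from the size of the log2 fold change over the root of its F statistic. Depth was 10084927 to 19316994 counts per library, and precision rests on the 3 libraries per group. Scripts were tested on simulated data. limma 3.58.1 (voom), DESeq2 1.42.0, other scalings, filters and left-out libraries were alternatives.

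In each comparison the text names called transporters by absolute change, at most 3 higher and 3 lower per class and 30 in all, a list of 24 transporters studied in macrophages or microglia, and the 10 highest per length in unstimulated cells. Partner genes are up to 2 called each way per list. Others, such as Slc11a2, Slc25a44, Slc27a4, Slc15a4 and Slc2a5, were named after their values were seen. The members and lists were chosen with earlier results of these data known. Some genes are not reported here.

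Replicate numbers come from the sample titles. In neonatal libraries, deviations from group means were correlated between same-numbered libraries of different groups. All 45 such pairs correlated over 0.1 (r from 0.18 to 0.69). The main fit held group only and did not use this pairing. Its SEs and adjusted p-values therefore leave the pairing out, and the fit blocked on replicate number was an alternative.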

Additional observations from a re-analysis of the deposited data

How the results depend on the processing

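The number of transporters called with IFNg was 66 with the replicate block (23.7% of all genes called). It was 26 to 36 with a library left out (8.10 to 9.97% of all genes), the lowest number without unstimulated replicate 2. With IL-6 it was 15 with the replicate block (4.88% of all genes), 10 with DESeq2 (2.45%) and 7 with total counts only (1.22%). It was 2 with the compared groups fitted alone (0.642%) and 3 to 4 with a library left out (0.347 to 0.616%). With IFNa it was 68 with the replicate block (25.4% of all genes) and 55 with total counts only (18.8%). It was 25 to 35 with a library left out (9.24 to 12.9% of all genes). With TNFa it was 56 with the replicate block (17.4% of all genes). Slc11a1 with the mixture, at 0.0029 (adjusted p = 0.995), reversed under total counts only, to -0.41 (adjusted p = 0.00969). The causes were not tested. In the adult comparison 2 of 3 same-numbered pairs correlated over 0.1 (r from 0.060 to 0.154). Pairs with different numbers had r from -0.138 to 0.049, and the labels do not say what the numbers stand for. The replicate block called 106 adult transporters (50.2% of all genes), against 93 without it (45.7%). Leaving out a library gave 76 to 106 (33.3 to 46.1% of all genes). Of the called transporters followed singly through the alternatives, 23 of 33 with IFNg, 2 of 4 with IL-6, 21 of 33 with IFNa, 20 of 28 with TNFa, 42 of 46 with the mixture and 34 of 48 in adults kept their call in all alternatives run. With 3 libraries a group, small changes could not be resolved, and not only those of low genes. Simulated libraries were drawn independently, without the pairing by replicate number, and only a small set of genes above a count minimum was changed. In these data, 45% of 2-fold changes were recovered in the neonatal fit and 82% in the adult fit. For 4-fold changes these shares were 90% and 99%. False calls made up 7.53% of the calls in the simulated neonatal data and 3.21% in the simulated adult data. The real comparisons differ from that setting, so these shares are not rates for them.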
